A study of Sus scrofa with 4 samples.

Results

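The genes described here are 10 that oocytes express: ZP2, ZP3 and ZP4 of the egg coat, the secreted growth factors GDF9 and BMP15, the transcription factor FIGLA, the germline RNA regulators DAZL and DDX4, and NLRP5 and OOEP of the maternal protein complex under the egg membrane. They were taken from the deposited expression table by gene symbol, and 9 of the 10 had a row among 22309 genes. DAZL had none under its symbol. A row whose description carries DAZL's NCBI gene identifier was listed at 0 counts in all 4 libraries and was not used further.

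The measurements are poly(A)-enriched RNA-seq of pig (Sus scrofa) ovaries in diestrus, the luteal phase of the cycle, from 2 samples of sows that overexpress leptin, the hormone of fat stores, and 2 wild-type (WT) samples. The series design describes the leptin overexpression sows as F2 animals that carry the overexpressed leptin of a cloned founder line crossed with Duroc/Landrace/Yorkshire sows. The promoter of the transgene and the age of the sows were not given in the sources used here. Neither the region of the ovary nor whether each sample was a different sow is stated in the labels. The p-values therefore reflect the spread of 2 samples per group, and that spread could be technical.

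Oocytes are the germ cells of the ovary and a very small share of its cells, yet several of their transcripts are made by almost no other ovarian cell. ZP2, ZP3 and ZP4 are the glycoproteins of the pig zona pellucida, the coat that sperm must bind and cross. GDF9 and BMP15 are TGF-beta family proteins that the oocyte secretes to control the surrounding granulosa cells, through the receptors BMPR2, BMPR1B and TGFBR1. FIGLA is known from mouse as the factor that switches on the zona genes, DDX4 is the germline RNA helicase also called VASA, and NLRP5 and OOEP belong to the subcortical maternal complex, which in mouse is needed for the first cleavages of the embryo.

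Total counts per library were 16563376 and 16564990 in leptin overexpression and 16493113 and 16797511 in WT. Levels within a gene are given as CPM, the count scaled to a common library total with TMM factors, and levels between genes as the authors' FPKM, which are also scaled to transcript length. TMM factors ran from 0.809 to 1.34, the highest in WT replicate 1. LEP, the overexpressed gene, had 55 and 124 counts in leptin overexpression against 0 and 3 in WT. The share of counts from the mitochondrial genome was lowest in WT replicate 1: it was 15.1% and 16.4% for leptin overexpression, against 6.89% and 12.9% for WT. Its part in the results was not tested. Across tested genes, WT replicate 1 correlated with the other libraries at Pearson's r = 0.875 to 0.928, and the other pairs correlated at 0.906 to 0.958; genes are not independent replicates.

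Oocyte transcripts were abundant in a single library. The 9 genes together had 335 and 338 counts in leptin overexpression replicates 1 and 2, against 3193 in WT replicate 1 and 406 in WT replicate 2. As CPM of the raw library totals this was 20.2 and 20.4 in leptin overexpression and 194 and 24.2 in WT. The exact Poisson 95% intervals were 18.1 to 22.5 and 18.3 to 22.7 in leptin overexpression and 187 to 200.4 and 21.9 to 26.6 in WT; such intervals cover counting error only. The leptin overexpression libraries and WT replicate 2 therefore lay close together, and the WT libraries lay far apart. After TMM scaling, WT replicate 1 was 5.98-fold above WT replicate 2 (95% counting interval 5.39 to 6.65), while leptin overexpression replicate 1 was 0.866 times leptin overexpression replicate 2 (0.742 to 1.01). In whole-tissue RNA, differences in oocyte number, in RNA per oocyte and in the region of the ovary sampled cannot be told apart, and none was tested.

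Of the zona genes, ZP3 and ZP4 were far higher in WT replicate 1 than in the other libraries, and ZP2 less so. ZP3 (ENSSSCG00000007691) had 61 and 36 counts, or 3.98 and 2.69 CPM, in leptin overexpression, against 699 and 74 counts, or 31.7 and 4.42 CPM, in WT. ZP4 (ENSSSCG00000010141) had 35 and 34 counts, or 2.28 and 2.54 CPM, in leptin overexpression, against 586 and 47 counts, or 26.6 and 2.8 CPM, in WT. For both genes the groups did not overlap, but WT replicate 2 was far closer to the leptin overexpression libraries than to the other WT library. ZP2 (ENSSSCG00000007851) had only 12 and 16 counts in leptin overexpression and 38 and 11 in WT, that is 0.783 and 1.2 against 1.72 and 0.656 CPM, and its groups overlapped. WT replicate 1 was again the highest library for ZP2, at 2.01 times the other 3 pooled (95% counting interval 1.25 to 3.23), against 8.43 times for ZP3 (7.12 to 10) and 10.4 times for ZP4 (8.52 to 12.8). In RefSeq (Sscrofa11.1), ZP2 overlaps TMEM159 and none of the other 9 genes has an overlapping neighbour; whether the authors' counting used strand was not given, so reads of ZP2 and TMEM159 cannot be told apart with certainty. ZP1 was not analysed here.

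**Figure D1:**
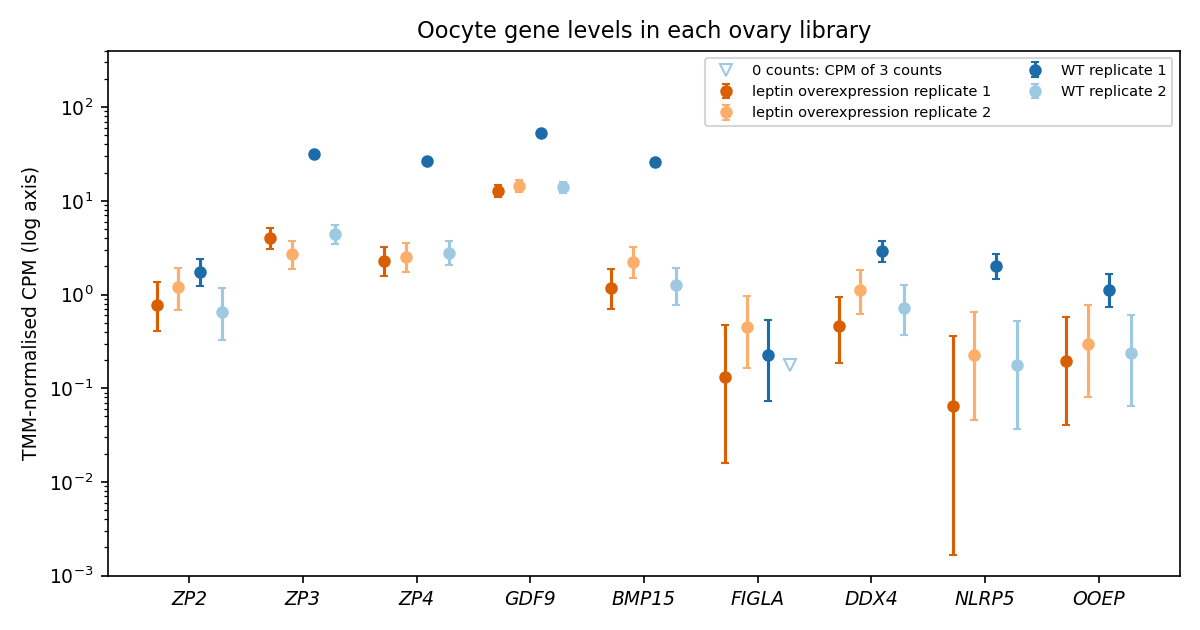
TMM-normalised CPM (log axis) of the 9 oocyte genes in each of the 4 libraries; points are single libraries, bars are exact Poisson 95% intervals of the count, and the open triangle is the CPM of 3 counts where FIGLA had 0. WT replicate 1 is the highest library for 8 of the 9 genes. The other WT library lies between the leptin overexpression libraries for GDF9, BMP15, DDX4, NLRP5 and OOEP, above both for ZP3 and ZP4, and below both for ZP2 and for FIGLA, where it had 0 counts.

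Of the growth factors, BMP15 differed most between libraries and GDF9 was the most counted. GDF9 (ENSSSCG00000014288) had 196 and 194 counts, or 12.8 and 14.5 CPM, in leptin overexpression, against 1158 and 234 counts, or 52.5 and 14.0 CPM, in WT. BMP15 (ENSSSCG00000012310) had 18 and 30 counts, or 1.18 and 2.24 CPM, in leptin overexpression, against 574 and 21 counts, or 26.0 and 1.25 CPM, in WT. For both genes WT replicate 2 fell between the leptin overexpression libraries, so the groups overlapped. WT replicate 1 stood at 17.2 times the other 3 libraries pooled for BMP15 (95% counting interval 13.3 to 22.4) and at 3.83 times for GDF9 (3.47 to 4.23). These intervals do not overlap, and the partner growth factors were thus not scaled by the same ratio in that library.

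The germline and maternal-complex genes were low everywhere and followed the same library where they could be read. DDX4 (ENSSSCG00000016913) had 7 and 15 counts in leptin overexpression and 64 and 12 in WT, or 0.457 and 1.12 against 2.9 and 0.716 CPM. NLRP5 (ENSSSCG00000044019) had 1 and 3 counts in leptin overexpression and 44 and 3 in WT, and OOEP (ENSSSCG00000004285) had 3 and 4 against 25 and 4. WT replicate 1 was 3.88 times the other libraries for DDX4 (95% counting interval 2.52 to 6.07), 13.0 times for NLRP5 (5.79 to 34.1) and 4.69 times for OOEP (2.22 to 10.6). FIGLA (ENSSSCG00000008321) was the exception, with 2 and 6 counts in leptin overexpression and 5 and 0 in WT. Its ratio was 1.29 (0.332 to 4.47), so no difference was detectable at this depth; a count of 0 in WT replicate 2 allows up to 3 counts, or 0.179 CPM.

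**Figure D2:**
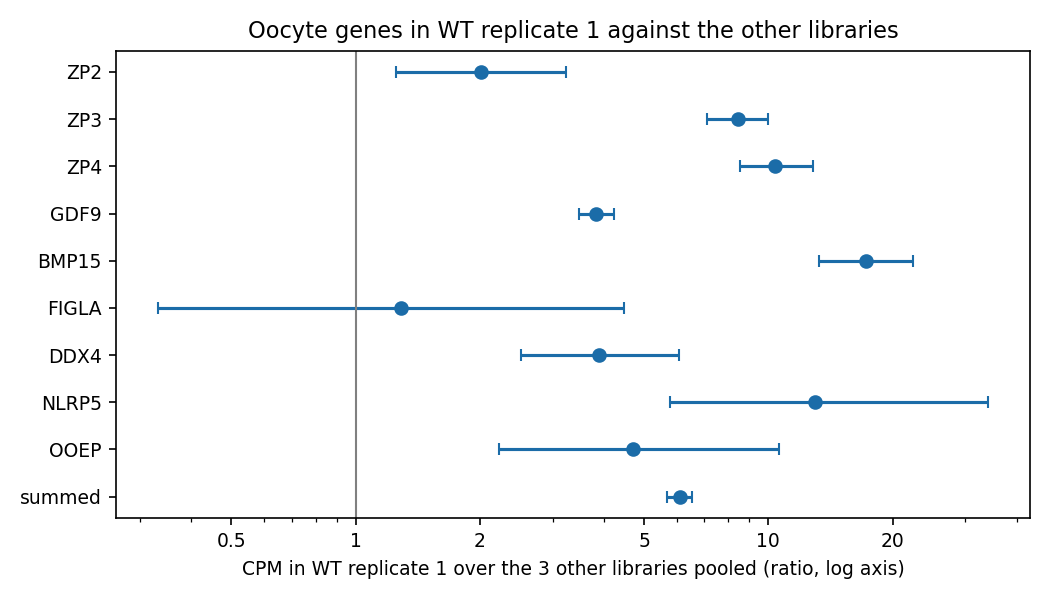
Ratio of CPM in WT replicate 1 to the 3 other libraries pooled (log axis), for each oocyte gene and for their sum; bars are 95% counting intervals and the grey line marks a ratio of 1. BMP15 and NLRP5 are farthest to the right at 17.2 and 13.0, the sum is at 6.1, and the interval of FIGLA includes 1.

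A library that is at least 4-fold above every other was uncommon in the table. This held for WT replicate 1 in 186 of 13937 tested genes, or 1.33%, against 3 of the 6 tested oocyte genes (ZP3, ZP4 and BMP15). NLRP5, untested and at low counts, also met it, which makes 4 of the 9 with a row. The share over all rows with a count was not computed for this limit, so the 4 of 9 has no matching base. WT replicate 1 also stood that far above the others for 3 of 5 tested further maternal-effect genes. The same was true of 4 of 9 tested oviduct epithelium markers, so the pattern was not particular to the oocyte genes. The 4-fold limit was chosen after the values were seen, so the counts are a description. The same pattern was met by 0.0718% of tested genes for leptin overexpression replicate 1, 0.301% for leptin overexpression replicate 2 and 0.28% for WT replicate 2. WT replicate 1 was simply the highest library for all 6 tested oocyte genes, where this held for 28.5% of all tested genes, and for 8 of the 9 with a row, where it held for 32.2% of all rows with a count.

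The genotype comparison asks whether oocyte transcripts differ in ovaries with leptin overexpression, and in these data the answer rested on WT replicate 1. Of the 9 genes with a row, 6 passed the filter on low counts and were tested; FIGLA, NLRP5 and OOEP did not. By edgeR's quasi-likelihood test, adjusted over all 13937 genes tested, 0 of the 6 rose and 0 fell, where the test called 0.0287% of all genes higher and 0% lower. Their log2 fold changes, leptin overexpression minus WT, were all negative, with a median of -1.86 against -0.01 over all genes tested. LEP, the overexpressed gene, was itself not called (log2 fold change 6.18, SE 1.19, edgeR adjusted p = 0.198). A gene that was not called may therefore still differ widely between the groups. At an unadjusted p under 0.05, ZP3 and ZP4 were lower, as were 5.32% of all genes tested. Groups that do not overlap, lower in leptin overexpression, were found for ZP3 and ZP4 and for 22.9% of all genes tested. DESeq2 called 0 of the 9 oocyte genes, where it called 1.36% of the genes with an adjusted p lower; ZP3, ZP4 and BMP15 had DESeq2 adjusted p of 0.0668, 0.0687 and 0.0692.

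The log2 fold change of ZP3 was -2.43 (SE 0.86, edgeR adjusted p = 0.464) and that of ZP4 -2.61 (SE 0.95, edgeR adjusted p = 0.482). That of BMP15 was -3.00 (SE 1.31, edgeR adjusted p = 0.552) and that of GDF9 -1.29 (SE 0.59, edgeR adjusted p = 0.551). DDX4 gave -1.21 (SE 1.00, edgeR adjusted p = 0.682) and ZP2 -0.28 (SE 0.91, edgeR adjusted p = 0.926). Mean levels were 3.34 ± 0.914 CPM in leptin overexpression and 18.1 ± 19.3 CPM in WT for ZP3, and 13.6 ± 1.2 and 33.2 ± 27.3 CPM for GDF9 (SD, n = 2 each); the SD within WT was larger than the ZP3 mean. BMP15 averaged 1.71 ± 0.754 CPM in leptin overexpression and 13.6 ± 17.5 CPM in WT (SD, n = 2 each).

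Leaving out WT replicate 1 removed nearly all of the difference. Without it the log2 fold changes were -0.42 for ZP3, -0.24 for ZP4, -0.06 for GDF9, 0.41 for BMP15, 0.10 for DDX4 and 0.56 for ZP2, and their median was 0.02. Without WT replicate 2 they were -3.27 for ZP3, -3.49 for ZP4, -3.96 for BMP15 and -1.97 for GDF9, and these 4 genes passed the threshold (edgeR adjusted p = 1.2e-04, 4.07e-05, 2.57e-06 and 0.0351), as did 2.86% of the genes tested there in the same direction. Such a fit assumes that the lone WT library varies like the leptin overexpression libraries, and it holds none of the spread within WT. Limma-trend on log2(FPKM + 1) also called ZP3 and ZP4 lower (adjusted p = 0.00822 and 0.0222), with log2 fold changes of -1.92 and -1.78. On that scale the median of all genes was -0.30 and 2.68% of genes were called lower.

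**Figure D3:**
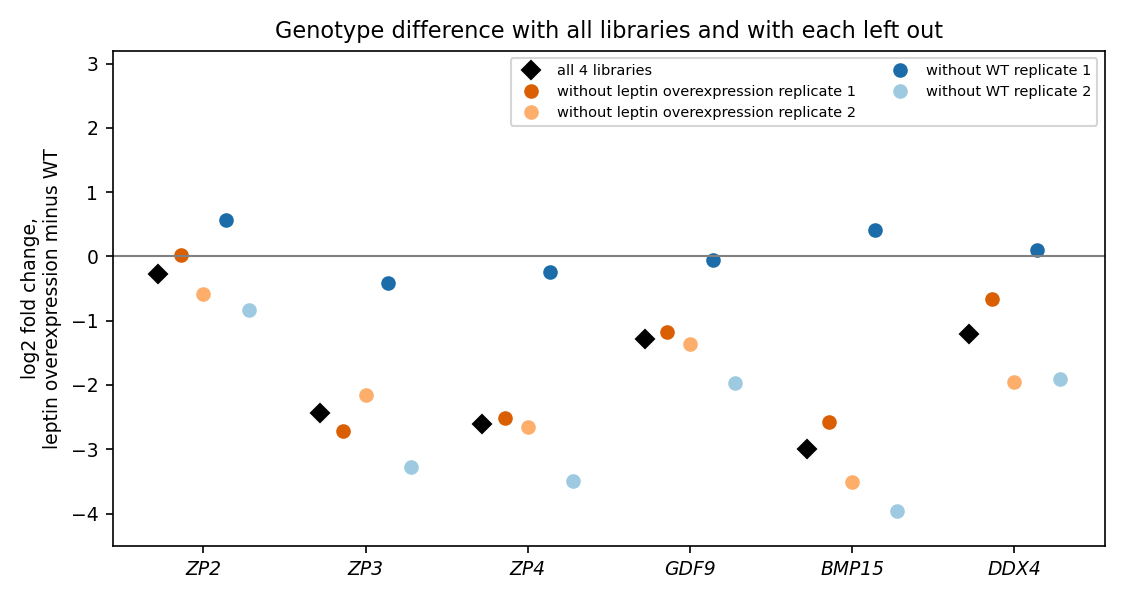
Log2 fold change (leptin overexpression minus WT, edgeR) of the 6 tested oocyte genes with all 4 libraries (diamonds) and with each library left out (circles). The points without WT replicate 1 lie between -0.42 and 0.56, and those without WT replicate 2 are the lowest for 5 of the 6 genes.

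The oocyte genes did not keep fixed proportions from library to library. By FPKM, ZP3 and GDF9 were the highest genes in 3 libraries, ZP3 being at 2.81 and 1.66 FPKM in leptin overexpression and at 32.3 and 3.36 FPKM in WT. GDF9 was at 2.54 and 2.51 FPKM in leptin overexpression and at 15.1 and 2.99 in WT. In WT replicate 1 the order was ZP3, ZP4 (21.1 FPKM), GDF9 and BMP15 (14.1 FPKM), while BMP15 was at 0.44 and 0.73 FPKM in leptin overexpression and 0.51 FPKM in WT replicate 2. BMP15 made up 5.51% and 9.3% of the summed FPKM of the 9 genes in leptin overexpression, against 15.9% and 5.38% in WT. GDF9 made up 31.8% and 32.0% in leptin overexpression, against 17.1% and 31.5% in WT.

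Ratios of counts within a library, which do not depend on scaling, showed the same shift. There were 10.9 and 6.47 GDF9 counts per BMP15 count in leptin overexpression (95% counting intervals 6.71 to 18.8 and 4.39 to 9.84), against 2.02 and 11.1 in WT (1.82 to 2.23 and 7.12 to 18.3). GDF9 per ZP4 count was 5.6 and 5.71 in leptin overexpression and 1.98 and 4.98 in WT, and only WT replicate 1 lay outside the intervals of the other 3. ZP3 per ZP4 count varied less, at 1.74 and 1.06 in leptin overexpression and 1.19 and 1.57 in WT. ZP3 per ZP2 count was 5.08 and 2.25 in leptin overexpression and 18.4 and 6.73 in WT; ZP2, although a main coat protein, was at 0.32 and 0.43 FPKM in leptin overexpression and 1.03 and 0.29 FPKM in WT. The 3 libraries with few oocyte counts resembled each other in their GDF9 share and differed from WT replicate 1.

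**Figure D4:**
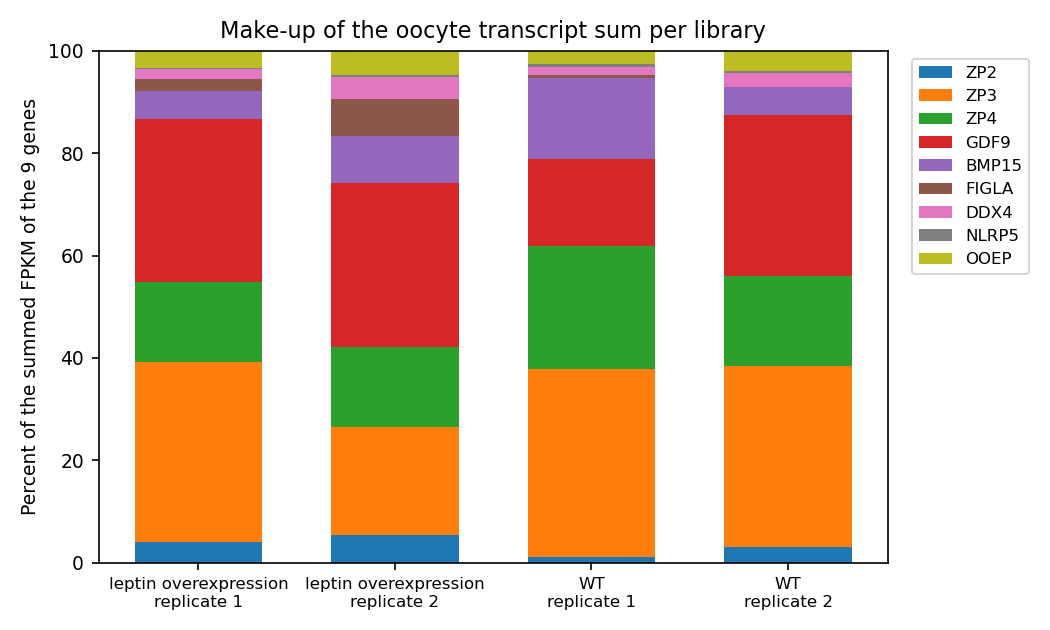
Share (percent) of each oocyte gene in the summed FPKM of the 9 genes, for the leptin overexpression libraries on the left and the WT libraries on the right; each bar is 1 library and has no error bar. GDF9 holds 31.5% to 32.0% in 3 libraries and 17.1% in WT replicate 1, where BMP15 holds 15.9%.

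Of the other maternal-effect genes, 6 of the 10 with a count were highest in WT replicate 1 by CPM, against 32.2% of all rows with a count. Of 15 further genes of the subcortical maternal complex and maternal-effect list, 10 had a row and 5 were tested; 0 passed in either direction, all 5 had negative log2 fold changes and their median was -2.45. PADI6, which egg cytoplasmic lattices need in mouse, was at 1.44 and 1.64 CPM in leptin overexpression and 22.1 and 3.76 CPM in WT (log2 fold change -3.07, SE 0.83, edgeR adjusted p = 0.279). DESeq2 called PADI6 lower (adjusted p = 0.00998), and without WT replicate 1 its log2 fold change by edgeR was -1.31. KPNA7, an importin of oocytes and early embryos, was at 1.7 and 2.09 CPM in leptin overexpression and 19.8 and 0.835 CPM in WT, and its log2 fold change of -2.45 became 1.15 without WT replicate 1. ZBED3, also on the list, was at 23.3 and 19.2 against 24.0 and 37.5 CPM and was highest in WT replicate 2. NLRP9, named after its values were seen, had 11 and 3 counts in leptin overexpression and 265 and 9 in WT. WEE2, a kinase of meiotic arrest on the same list and also named after its values were seen, had 0 and 4 counts in leptin overexpression and 85 and 10 in WT.

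Germline RNA regulators outside the set were likewise highest in WT replicate 1 where tested. Of 22, 19 had a row and 10 were tested, with 0 called, 10 negative log2 fold changes and a median of -1.20. All 10 were highest in WT replicate 1, as were 28.5% of all genes tested. Some passed the filter only through WT: TDRD1 had 5 and 0 counts in leptin overexpression and 49 and 20 in WT. Of the 18 with a count, tested or not, 16 were highest in WT replicate 1, against 32.2% of all rows with a count. ZAR1, which binds maternal mRNAs, was at 0.326 and 0.523 CPM in leptin overexpression and 6.35 and 0.716 CPM in WT. CPEB1, which controls the poly(A) tails of stored mRNAs, was at 4.11 and 6.05 CPM in leptin overexpression and 9.39 and 5.49 CPM in WT, and LSM14B at 38.2 and 25.4 against 41.2 and 26.5 CPM. MOS, the kinase that holds mature eggs in meiosis, did not pass the filter and was named after its values were seen; it had 1 and 3 counts in leptin overexpression and 72 and 2 in WT.

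Oocyte transcription factors were near the limit of detection, as FIGLA was. Of 8 outside the set with a row, 6 did not pass the filter. NOBOX, the oocyte homeobox factor, had 2 and 1 counts in leptin overexpression and 41 and 0 in WT. LHX8 had 0 and 2 against 29 and 2. SOHLH1 was instead highest in leptin overexpression replicate 2, with 3 and 11 counts in leptin overexpression and 5 and 1 in WT. All were named after their values were seen. Of the 8, tested or not, 6 were highest in WT replicate 1, against 32.2% of all rows with a count. The 2 tested factors are not specific to oocytes: TAF4B was at 9.27 and 15.2 CPM in leptin overexpression and 4.13 and 7.46 CPM in WT, and ZNF217 at 20 and 12.8 against 30.8 and 21.9 CPM.

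Receptors and signal carriers of the growth factors, which granulosa and other ovarian cells make, were not highest in WT replicate 1. None of the 11 receptors, SMADs and BMP6 of the growth factor list was highest in that library, 0 were called, and their median log2 fold change was 0.09. BMPR1B, a receptor for BMP15, was at 136 and 140 CPM in leptin overexpression and 60.9 and 198 CPM in WT. The signal carrier SMAD2 was at 105 and 88.9 CPM in leptin overexpression and 56.1 and 70.4 CPM in WT. SMAD4, its shared partner, was at 84.8 and 82.2 CPM in leptin overexpression and 59.4 and 66 CPM in WT. KIT, the receptor on oocytes for KIT ligand that other ovarian cells also make, was at 50.1 and 66.5 CPM in leptin overexpression and 60.7 and 107 CPM in WT. The gap junction gene GJA4 was at 32.1 and 17.9 against 18.0 and 42.1 CPM, and CD9, needed for sperm fusion in mouse, at 112 and 114 against 147 and 91.2 CPM. The median log2 fold change of these 3 surface genes, the ones of their list that were tested, was -0.26. Of the 9 genes of that list with a count, tested or not, 6 were highest in WT replicate 1. This held for 32.2% of all rows with a count. The homeobox gene OTX2, named after its values were seen, had 0 and 6 counts in leptin overexpression and 84 and 1 in WT.

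Meiosis and follicle-reserve lists gave medians near 0. Of 19 meiosis genes with a row, 8 were tested and 0 called, with a median of 0.17; MSH4, MLH3 and MEIOB, the highest by FPKM, had log2 fold changes of 0.60, 0.38 and 0.31, those of MLH3 and MEIOB being negative by limma-trend. Of 10 genes of the primordial follicle and oocyte survival list, 9 were tested and 0 called, with a median of 0.02. UCHL1, a ubiquitin hydrolase of oocytes and nerve cells, was at 269 and 323 CPM in leptin overexpression and 109 and 240.2 CPM in WT, and so was lowest in the library where the zona genes were highest. LAMP2, of lysosomes, was at 257 and 358 against 324 and 322 CPM.

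**Figure D5:**
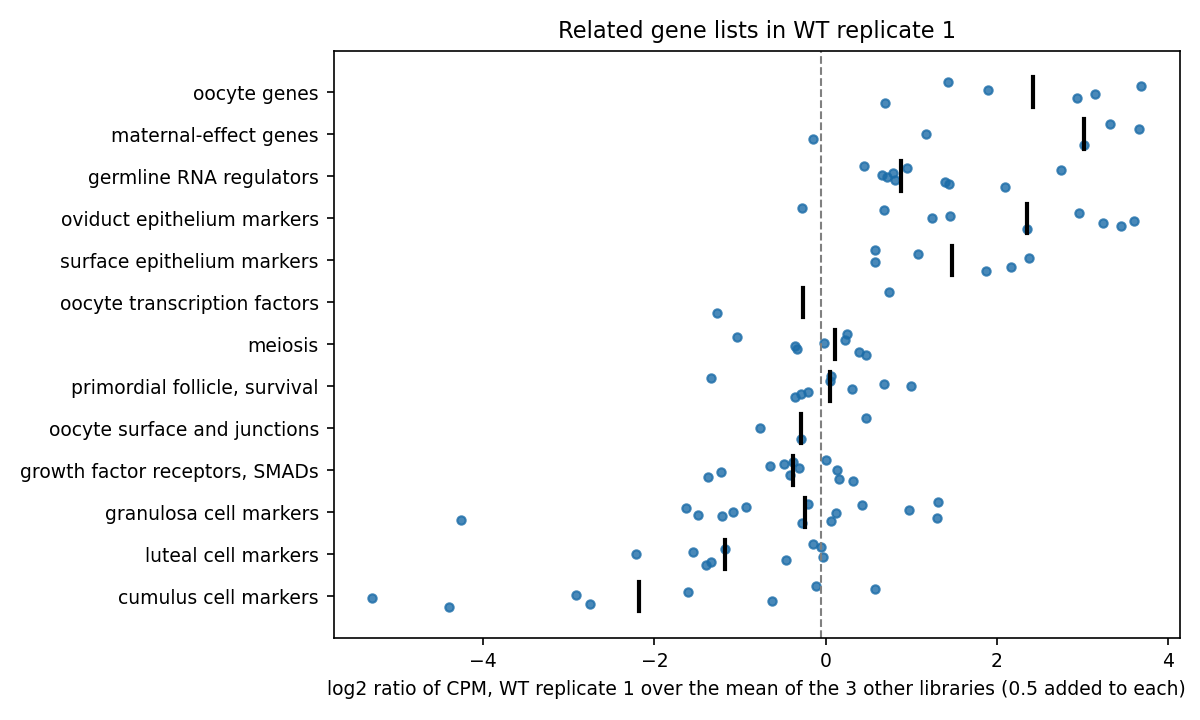
Log2 ratio of CPM in WT replicate 1 to the mean of the 3 other libraries (0.5 added to each), for each tested gene (points) of 13 lists; black bars are list medians and the dashed line is the median of all genes tested, -0.05. The medians are 2.42 for the oocyte genes, 3.02 for further maternal-effect genes, 2.36 for oviduct epithelium markers and -2.18 for cumulus cell markers.

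Markers of other cells also set WT replicate 1 apart. Oviduct epithelium markers were highest in it for 8 of 9 tested genes, and their summed FPKM was 10.1 and 7.31 in leptin overexpression and 284 and 107 in WT; of the 9, 2 and 1 were at 0 counts in the leptin overexpression libraries and 0 in either WT library. The secreted oviductal glycoprotein OVGP1 was at 0.0653 and 1.2 CPM in leptin overexpression and 316 and 183 CPM in WT, and TPPP3, of ciliated cells, at 28.6 and 18.7 against 66.0 and 35.2 CPM. Unlike the oocyte genes, OVGP1 was therefore high in both WT libraries. Other markers of the list leaned more to WT replicate 1, which was at least 4-fold above every other library for 4 of the 9. Of these, FOXJ1 was at 0 and 0.448 CPM in leptin overexpression and 38.2 and 8.65 CPM in WT. DNAH9 was at 5.16 and 4.11 against 56.5 and 11.2 CPM. Luteal markers, whose sum but not every member was lowest in WT replicate 1, summed to 18071.3 and 16557.0 FPKM in leptin overexpression and 13229.6 and 20808.2 FPKM in WT, and cumulus markers to 488 and 779 FPKM against 54.9 and 507. AREG, at 413 FPKM, made up most of the cumulus sum in WT replicate 2. PTX3 of that list was lower in both WT libraries, at 313 and 441 FPKM in leptin overexpression and 19.9 and 70.9 FPKM in WT. Granulosa markers summed to 906 and 662 FPKM in leptin overexpression and 1029.0 and 986 FPKM in WT, but members of that list went different ways. CYP19A1 was at 197 and 161 CPM in leptin overexpression and 9.21 and 197 CPM in WT. INHA was at 253 and 137 against 565 and 299.7 CPM. Of the 14 granulosa markers, 4 were highest in WT replicate 1. The part of these other cells in the oocyte gene differences was not tested. Sperm and male germ cell markers were low, with 8 genes summing to 1.86 and 0.62 FPKM in leptin overexpression and 0.56 and 0.6 FPKM in WT. TNP2 made up the sums in leptin overexpression, with 24 and 8 counts there and 3 and 6 in WT. SYCE1, a meiosis gene on this list that is not particular to male germ cells, had 0 counts in both leptin overexpression libraries and 13 and 2 in WT.

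The genes whose profiles over the 4 libraries lay closest to the mean profile of the tested oocyte genes were not oocyte genes by name. Among 12243 tested genes outside the set with a symbol and a mean of at least 1 CPM, the 5 smallest root mean square distances in log2 were 0.0606 for COQ10A, 0.129 for ZBBX, 0.164 for SPA17, 0.191 for NEK10 and 0.211 for DNAH6. DNAH6 is an axonemal dynein heavy chain of motile cilia and COQ10A a coenzyme Q binding protein of mitochondria. The roles of ZBBX, SPA17 and NEK10 were not looked at here, so the 5 are not described as a set. COQ10A was at 1.76 and 1.94 CPM in leptin overexpression and 11.1 and 1.85 CPM in WT, and DNAH6 at 2.74 and 3.21 against 16.7 and 4.3 CPM. The oocyte genes themselves lay at 0.188 (GDF9) to 0.712 (ZP2) from their mean, so these 4 libraries alone do not separate oocyte genes from others that are high in WT replicate 1.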

How the data were processed

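The deposited expected counts per gene are estimated counts, not scaled to depth, and the deposited FPKM are scaled by the authors to length and fragments, per the file headers. Tools listed by the submitters' processing notes, with no roles, are HISAT2, RSEM, StringTie 1.3.1, Bowtie2 2.2.8, fastp 0.18.0, edgeR 3.32.0 and DESeq2; a genome build is not given in these sources. Columns named for controls were matched to WT samples of the same number.

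Counts were rounded. Genes were filtered with filterByExpr (13937 kept, 8372 removed), scaled with TMM and compared with edgeR 4.0.16 (R 4.3.3; robust quasi-likelihood test, 2 residual degrees of freedom, Benjamini-Hochberg adjustment over all genes tested, threshold 0.05). SE is the absolute log2 fold change over the square root of F. The fit was tested on simulated counts. The same spread was set there for every gene, below the median within-group SD of 1.16 in log2 of the tested oocyte genes. How the fit performs at that SD was therefore not tested. Alternatives used DESeq2 1.42.0 and limma 3.58.1. Ratio intervals are exact conditional binomial ones (scipy 1.17.1).

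The members and lists were chosen with earlier results of these data known. The rule named the 10 genes, LEP, up to 3 genes per related list by FPKM (2 for lists of other cells, given for oviduct only) and the 5 nearest profiles. Further lists of theca, stroma and surface epithelium markers summed to 426 and 180.3, 2240.6 and 1290.6, and 13.8 and 40.5 FPKM in leptin overexpression, against 153 and 945, 2093.2 and 1393.1, and 126 and 60.2 FPKM in WT. Rows whose symbols conflicted between tables were left out of these lists.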

Additional observations from a re-analysis of the deposited data

How the results depend on the processing

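Over all genes tested, edgeR called 4 higher and 0 lower; upper-quartile factors gave 7 and 4, no filter 84 and 168, DESeq2 104 and 215, and limma-trend 90 and 374 on log2(FPKM + 1) and 89 and 398 on log2(FPKM + 0.1). Leaving out 1 library gave 0 to 258 higher and 0 to 423 lower. With the replicate number as a block, 11 were higher and 12 lower, and 0 oocyte genes were called. The deviations of same-numbered libraries from their group means had Pearson's r = -0.0995 across genes. With 2 libraries per group, that value cannot show whether same-numbered libraries shared a batch, and the labels give none. Of the oocyte genes, 2 were called lower by each limma-trend fit and 0 to 4 when 1 library was left out; RLE and upper-quartile factors, both other filters, DESeq2 and the block called 0. The median log2 fold change of the oocyte genes tested was -2.73 to 0.02 when 1 library was left out. Upper-quartile factors moved the median of all genes to -0.11 and limma-trend on log2(FPKM + 0.1) to -0.40. Single genes turned direction as follows when 1 library was left out, with the lowest and highest values given: BMP15 -3.96 to 0.41, DDX4 -1.95 to 0.10, ZP2 -0.83 to 0.56, KPNA7 -3.41 to 1.15, ZBBX -3.00 to 0.20, NEK10 -2.46 to 0.28, GJA4 -0.77 to 0.46, CD9 -0.40 to 0.29, LSM14B -0.40 to 0.25, LAMP2 -0.31 to 0.16, BMPR1B -0.55 to 1.15, MLH3 -0.28 to 0.85 and MEIOB -0.06 to 0.74. By limma-trend with 1 or 0.1 added, BMPR1B gave -0.09 and -0.08, MEIOB -0.09 and -0.09, and MLH3 -0.08 and -0.12. The causes were not tested. Counts of 16 or fewer in at least 3 libraries limit FIGLA, NLRP5, OOEP, DDX4 and ZP2.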
